A study of Mus musculus with 12 samples.

Results

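Cdkn1a, Gadd45a, Gadd45b, Gadd45g, Btg1, Btg2, Mdm2, Ccng1, Plk2 and Plk3 are stress-induced genes that act on cell division, several of them known targets of the transcription factor p53. They were found by symbol through their Ensembl identifiers, and all 10 were present among 49585 gene identifiers counted in liver and 55401 counted in macrophages. All 10 passed the filter on low counts in both tissues. Poly(A) RNA of C57BL/6 mice was sequenced in 12 libraries, 3 in each of 4 groups. Liver was taken untreated or after 2 h of lipopolysaccharide (LPS), the bacterial cell wall component sensed by toll-like receptor 4. The untreated livers are titled WT, for wild type, and the treated livers are titled LPS. The other groups were peritoneal macrophages that carried a lentiviral short hairpin RNA for 72 h and then received LPS for 2 h. The hairpin was a negative control (shNC) or targeted Gm26917, a long non-coding RNA (shGm26917). All macrophages therefore had both lentivirus and LPS, and no macrophage group without LPS was analysed here.

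In this pathway p53, held low by the ubiquitin ligase Mdm2, is stabilised by damage and switches on genes such as Cdkn1a, whose product p21 blocks cyclin-dependent kinases, and Mdm2 itself, which closes a feedback loop. Many of the same genes are also immediate or early response genes: inflammatory and growth signals can induce Gadd45b, Btg2, Plk2 and Plk3 without DNA damage. In liver, p21 and the GADD45 proteins are known for their part in the response to injury and in regeneration, and in macrophages p21 is known to restrain cytokine production.

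Total counts ranged from 17322770 to 20913964 in the liver libraries and from 15605311 to 18062853 in the macrophage libraries. Levels are CPM, the counts of a gene scaled to a common library size, on library totals scaled by TMM, the trimmed mean method of edgeR. By chi-square on raw counts, untreated liver replicate 3, LPS liver replicate 1 and shNC replicate 2 stood apart from the others of their groups. The chi-square per degree of freedom between untreated replicate 3 and the other untreated libraries was 207 and 183, against 90.2 between replicates 1 and 2. For LPS liver replicate 1 it was 84.7 and 78.6, against 22.8 between replicates 2 and 3. For shNC replicate 2 it was 211 and 251, against 30.7 between replicates 1 and 3. By the median absolute log2 difference from the rest of the group, LPS liver replicate 1 (0.330) and shNC replicate 2 (0.384) were also highest. Untreated replicate 3 (0.313) was not, as untreated replicate 1 was at 0.316. Nothing in the labels says that replicates came from separate animals or cultures, so p-values measure only the spread between these samples. The level of Gm26917 in the macrophages was not analysed here, so the hairpin could not be checked on its target. Hepatocyte markers summed to 97444 to 140655 CPM in untreated liver, and macrophage markers to 13110 to 23258 CPM in shNC macrophages, so each tissue held the defining markers of its label.

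The upstream sequences of Gadd45a, Gadd45b, Gadd45g and Plk2 are shown because their transcripts differed most between groups. That of Cdkn1a is shown because a p53 half-site lies in the window. Mdm2 and Ccng1 also held a p53 half-site there but are not shown. The 5 sequences shown were chosen after the values of their genes were seen. Each is the 250 bases before the RefSeq gene start (GRCm38.p6), written 5′ to 3′ on the strand of the gene, and capitals mark the motif matches named after them.
Cdkn1a, chr17:29090729-29090978, plus strand: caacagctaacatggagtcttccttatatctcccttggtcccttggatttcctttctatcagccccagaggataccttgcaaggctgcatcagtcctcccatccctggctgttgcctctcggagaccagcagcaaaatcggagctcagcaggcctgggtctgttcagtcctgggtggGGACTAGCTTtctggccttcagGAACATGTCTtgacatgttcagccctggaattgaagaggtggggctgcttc
Gadd45a, chr6:67037408-67037657, minus strand: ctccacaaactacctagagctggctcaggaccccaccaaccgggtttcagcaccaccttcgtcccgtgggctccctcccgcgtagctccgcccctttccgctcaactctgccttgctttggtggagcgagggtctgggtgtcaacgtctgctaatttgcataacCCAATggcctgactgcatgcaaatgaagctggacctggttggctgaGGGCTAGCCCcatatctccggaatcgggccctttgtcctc
Gadd45b, chr10:80929841-80930090, plus strand: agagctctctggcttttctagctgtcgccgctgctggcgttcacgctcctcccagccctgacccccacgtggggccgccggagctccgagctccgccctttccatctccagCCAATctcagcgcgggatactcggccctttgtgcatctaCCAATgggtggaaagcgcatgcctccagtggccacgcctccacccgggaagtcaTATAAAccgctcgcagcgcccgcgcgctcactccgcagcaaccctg
Gadd45g, chr13:51846425-51846674, plus strand: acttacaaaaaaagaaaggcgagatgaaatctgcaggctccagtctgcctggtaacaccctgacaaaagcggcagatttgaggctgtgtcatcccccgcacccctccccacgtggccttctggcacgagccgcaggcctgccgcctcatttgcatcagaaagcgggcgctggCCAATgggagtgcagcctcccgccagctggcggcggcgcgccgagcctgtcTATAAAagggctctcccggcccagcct
Plk2, chr13:110394794-110395043, plus strand: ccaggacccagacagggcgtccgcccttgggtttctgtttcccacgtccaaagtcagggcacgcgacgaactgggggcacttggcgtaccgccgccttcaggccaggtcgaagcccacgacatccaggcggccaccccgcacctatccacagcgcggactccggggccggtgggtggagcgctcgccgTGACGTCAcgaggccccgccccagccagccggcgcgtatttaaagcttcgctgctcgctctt

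Motifs were searched on both strands of the same 250 bases in 11 promoters of the 10 genes, Cdkn1a having a pair of start sites, and in 32807 mouse promoters. The p53 half-site was found in 4 genes and in 7.13% of all promoters. In Cdkn1a it lay at -73 to -64 and at -51 to -42 relative to the upstream start site, whose window is printed. The window of the other Cdkn1a start site (chr17:29093519-29093768) held no p53 half-site. In Gadd45a it lay at -40 to -31. Mdm2 and Ccng1 also held 1 each. The TATA box, TATAAA, was found in Gadd45b, Gadd45g and Btg1 and in 12.4% of all promoters. The CCAAT box, CCAAT, was found in 7 of the genes and in 33.8% of all promoters, among the printed windows in all 3 GADD45 genes. The cyclic AMP response element, TGACGTCA, was found in Plk2 at -62 to -55 and in Btg2, against 1.55% of all promoters. No match to the NF-kB site (7.25% of all promoters), the AP-1 site TGANTCA (6.75%) or the serum response element core (1.47%) lay in these windows. The matches marked in the 5 windows did not overlap each other. A match is a run of letters and not a measured binding site.

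The first comparison asked how these genes stood in liver 2 h after LPS. Most of them were higher: 7 of the 10 rose at an adjusted p under 0.05 in the edgeR quasi-likelihood test with Benjamini-Hochberg adjustment over 13869 genes, and none fell. Over all genes tested, 45.3% were called, 23.3% higher and 22.1% lower. The largest rises were in the GADD45 genes, 20.0-fold for Gadd45a, 17.2-fold for Gadd45b and 7.64-fold for Gadd45g. Levels of LPS and untreated libraries did not overlap for 9 of the 10 genes, against 57.8% of all genes tested. Without untreated replicate 3, 8 of the 10 were called, 7 higher and Ccng1 lower, beside 43.8% of all genes. Without LPS replicate 1, 5 were called, all higher, beside 37.3% of all genes. In whole liver, a change in the mix of cells and a change in RNA per cell cannot be told apart.

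**Figure D1:**
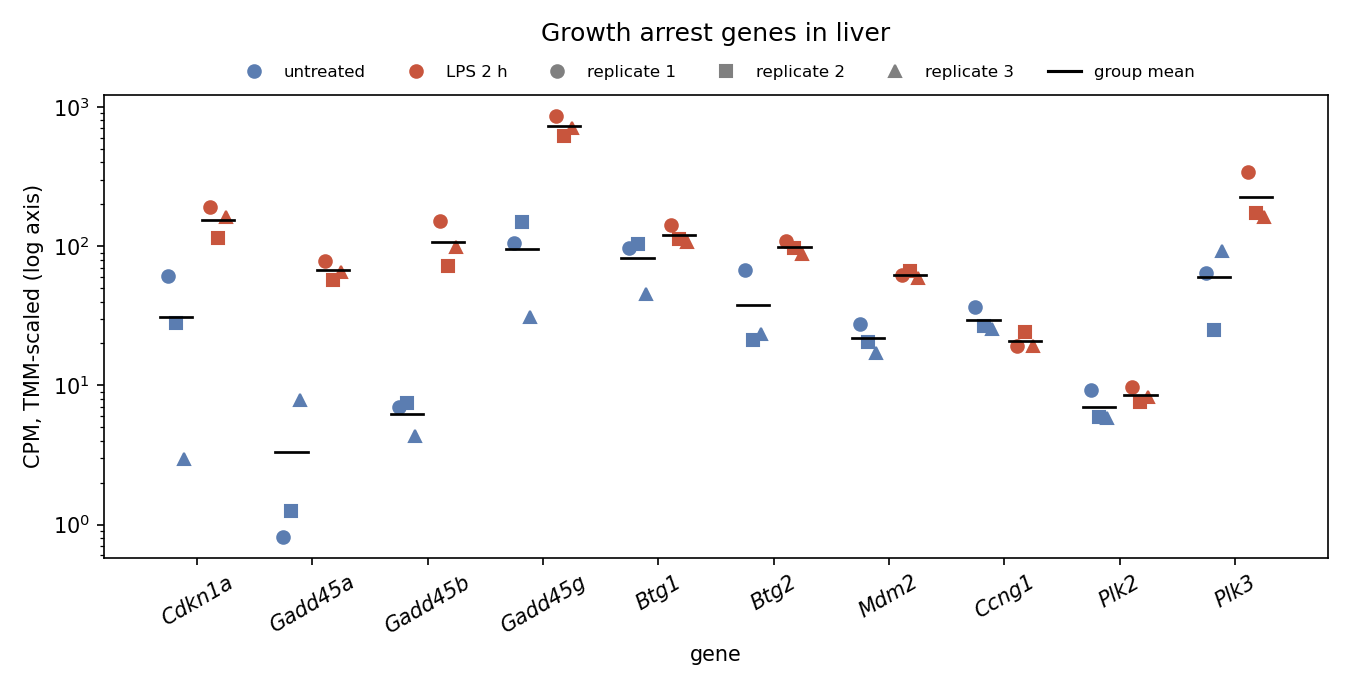
Level of each of the 10 genes in the 6 liver libraries, in TMM-scaled CPM on a log axis, with untreated libraries in blue, LPS libraries in red, symbols for replicates and a bar at each group mean. The 3 GADD45 genes show the widest gaps between groups, and untreated replicate 3 lies lowest for Cdkn1a and highest for Gadd45a among untreated libraries.

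Cdkn1a (chromosome 17, 29090976 to 29100727, plus strand) encodes p21, the inhibitor of cyclin-dependent kinases that carries out much of the growth arrest by p53. Its level was 61.5, 27.9 and 2.95 CPM in the untreated livers and 190, 114 and 162 CPM in the LPS livers. Every LPS library was above every untreated one, but the untreated libraries spread widely. The mean went from 30.8 ± 29.4 to 155 ± 38.6 CPM (SD, n = 3 each), a log2 fold change of 2.33 (SE 0.80, edgeR adjusted p = 0.0412). It was no longer called without untreated replicate 2 (2.24, adjusted p = 0.116), without LPS replicate 1 (2.18, adjusted p = 0.103), LPS replicate 2 (2.52, adjusted p = 0.0546) or LPS replicate 3 (2.32, adjusted p = 0.0800). Its fold change on the log2 scale was 3.33 without untreated replicate 1 and 1.80 without untreated replicate 3. It was also not called with library totals alone (1.86, adjusted p = 0.0859) or by DESeq2 (2.34, adjusted p = 0.05003).

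The GADD45 proteins are small nuclear stress proteins that bind the kinase Map3k4 upstream of p38 and JNK, and that also bind cell cycle proteins such as Pcna and Cdk1. Gadd45a (chromosome 6, 67035096 to 67037457, minus strand), the member most closely tied to p53, was at 0.82, 1.25 and 7.90 CPM in untreated livers and at 78.5, 57.5 and 64.9 CPM after LPS. It was close to undetected in a pair of untreated livers, and the third held most of the untreated signal. On the log2 scale it rose by 4.32 (SE 0.74, edgeR adjusted p = 0.00195), and without untreated replicate 3 it was 6.01 (adjusted p = 3.46e-06).

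Gadd45b (chromosome 10, 80930073 to 80932204, plus strand), known as a target of NF-kB that protects hepatocytes from JNK-driven death, was at 7.01, 7.42 and 4.34 CPM in untreated livers and at 153, 71.5 and 98.65 CPM after LPS. The untreated livers were uniformly low, and the log2 fold change was 4.10 (SE 0.35, edgeR adjusted p = 4.27e-05). Gadd45g (chromosome 13, 51846678 to 51848468, plus strand), first described as a cytokine-responsive member of the family, was at 105, 150 and 31.1 CPM in untreated livers and at 865, 618 and 705 CPM after LPS. It was the one GADD45 gene with an appreciable level before LPS, and it rose by a log2 of 2.93 (SE 0.51, edgeR adjusted p = 0.00212). Both genes, like Gadd45a, kept their calls when any 1 liver library was left out.

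Set per length of exon, the GADD45 genes together went from 87.2 ± 50.1 to 727 ± 139 CPM per kb (SD, n = 3 each). Gadd45g made up 89.8% ± 9.70 of that sum in untreated liver and 85.7% ± 1.59 after LPS, so liver GADD45 RNA was mostly Gadd45g in both groups. Gadd45a made up 0.49%, 0.53% and 13.3% of the sum in the untreated livers and 5.07%, 5.40% and 5.25% after LPS. Gadd45b made up 5.42% ± 2.39 and 9.09% ± 1.75.

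Btg1 and Btg2 encode antiproliferative adaptors that recruit the CCR4-NOT deadenylase to messenger RNA and bind the arginine methyltransferase Prmt1. Btg2 (chromosome 1, 134075170 to 134079120, minus strand), the p53-inducible one, was at 67.9, 21.2 and 23.5 CPM in untreated livers and at 110, 97.2 and 87.3 CPM after LPS. Untreated replicate 1 lay nearer to the LPS livers than to its own group, although the groups did not overlap. The rise was 1.39 on the log2 scale (SE 0.42, edgeR adjusted p = 0.0253), and it was 2.13 without untreated replicate 1. Leaving out untreated replicate 2 ended the call (1.07, adjusted p = 0.0785), as did leaving out LPS replicate 1 (1.31, adjusted p = 0.0712) or LPS replicate 2 (1.40, adjusted p = 0.0521) and the use of library totals alone (0.91, adjusted p = 0.130).

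Btg1 (chromosome 10, 96617006 to 96622809, plus strand) was at 97.0, 103 and 45.1 CPM in untreated livers and at 141, 113 and 106 CPM after LPS. The groups did not overlap, but replicates 2 and 3 after LPS lay within 10 CPM of the highest untreated liver. The log2 fold change of 0.55 was not called (95% interval -0.14 to 1.25, edgeR adjusted p = 0.170). Per length, Btg1 made up 54.8% ± 15.1 of the Btg1 and Btg2 sum before LPS and 38.8% ± 1.19 after it, and untreated replicate 1 (42.6%) lay close to the LPS livers.

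Mdm2 (chromosome 10, 117688875 to 117710758, minus strand), the ubiquitin ligase that degrades p53, was at 27.8, 20.4 and 17.0 CPM in untreated livers and at 62.5, 66.3 and 58.8 CPM after LPS. Its groups were tight and well apart, with a log2 fold change of 1.52 (SE 0.21, edgeR adjusted p = 0.000651), and it kept the call without any 1 library. Ccng1 (chromosome 11, 40748552 to 40755311, minus strand) encodes cyclin G1, a p53-induced protein that brings the phosphatase PP2A to Mdm2. Its level was 36.4, 26.8 and 25.3 CPM in untreated livers and 19.2, 24.2 and 19.1 CPM after LPS, so every LPS library was below every untreated one. A log2 fold change of -0.50 was not called (95% interval -0.96 to -0.04, edgeR adjusted p = 0.0724). It was called lower without untreated replicate 3 (-0.60, adjusted p = 0.0459), with library totals alone (-0.94, adjusted p = 0.0103) and with all 12 libraries in 1 fit (-0.57, adjusted p = 0.0237).

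Plk2 and Plk3 encode the stress-induced polo-like kinases, which unlike the mitotic Plk1 are early response genes. Plk3 (chromosome 4, 117128655 to 117133963, minus strand) was at 63.9, 25.2 and 92.4 CPM in untreated livers and at 341, 173 and 161 CPM after LPS. It rose by a log2 of 1.90 (SE 0.48, edgeR adjusted p = 0.0117) and kept the call when any 1 liver library was left out. Plk2 (chromosome 13, 110395046 to 110400844, plus strand) was at 9.24, 5.93 and 5.82 CPM in untreated livers and at 9.72, 7.55 and 8.29 CPM after LPS, with overlapping groups. Its log2 fold change of 0.28 was not called (95% interval -0.28 to 0.85, edgeR adjusted p = 0.380) and was -0.16 with library totals alone. Per length, Plk3 made up 92.4% ± 4.15 of the Plk2 and Plk3 sum in untreated liver and 97.7% ± 0.627 after LPS.

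In order of mean level per length, Gadd45g was highest of the 10 in both liver groups (81.3 ± 51.1 CPM per kb untreated, 622 ± 107 after LPS) and Plk2 lowest (1.56 ± 0.433 and 1.90 ± 0.246). In untreated replicate 3, however, Plk3 (36.5) lay above Gadd45g (26.5). After LPS the second place was held by Plk3 (89.0 ± 39.7), followed by Gadd45b (67.7 ± 25.97). Cdkn1a (43.7 ± 10.9), Gadd45a (38.0 ± 6.03) and Btg2 (35.7 ± 4.09) came next. Within each LPS library Plk3 lay above Gadd45b, and Gadd45b above Cdkn1a. The order of the others was not the same in each library, and in LPS replicate 2 it was Btg2 (35.4), Gadd45a (32.6) and Cdkn1a (32.1). Before LPS, the mean of Gadd45a (1.88 ± 2.25) stood just above that of Plk2, through untreated replicate 3 alone (4.48). In untreated replicates 1 and 2 Gadd45a (0.464 and 0.709) lay below Plk2 (2.06 and 1.32).

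Other genes of the pathway, from lists chosen around these 10, did not move together in liver. Beside every list count, 45.3% of all genes tested were called, 23.3% higher and 22.1% lower. The share was 38.9%, 39.7% and 43.8% without untreated replicates 1, 2 and 3, and 37.3%, 33.8% and 33.8% without LPS replicates 1, 2 and 3. With library totals alone it was 52.3%. Of 14 tested genes among p53 and its regulators, 5 rose and 4 fell, with a median log2 fold change of -0.11 beside -0.06 over all genes. Trp53, which encodes p53, rose by a log2 of 0.83 (edgeR adjusted p = 0.0186), a call lost without LPS replicate 3 (adjusted p = 0.0706) and with library totals alone (0.39, adjusted p = 0.223). Mdm4, the Mdm2 partner that silences p53, rose by 1.45 (adjusted p = 0.00200). The checkpoint kinase gene Chek1 (3.39, adjusted p = 0.00158, and 2.79 without LPS replicate 2) and Rchy1, a p53 ubiquitin ligase gene (0.93, adjusted p = 0.00261), also rose. Chek1 had few reads, with 5, 4 and 10 counts in untreated livers and 31, 92 and 32 after LPS. Of 27 other tested p53 target genes, 7 rose and 9 fell, with a median of -0.26. The death receptor gene Fas (3.44, adjusted p = 6.00e-06), the apoptosome gene Apaf1 (3.26, adjusted p = 3.97e-05) and the nuclease gene Aen (2.01, adjusted p = 0.000241) rose. Phlda3, an inhibitor of Akt (-3.78, adjusted p = 0.00343, and -4.96 without LPS replicate 2), Sesn2, a sestrin that restrains mTORC1 (-3.37, adjusted p = 0.000607), and Polk, a translesion polymerase (-2.84, adjusted p = 0.000217), fell. Phlda3 had few reads, with 18, 22 and 39 counts in untreated livers and 1, 3 and 0 after LPS. With library totals alone the split of these p53 targets was 5 higher and 14 lower.

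Among the other CDK inhibitors, 4 were tested and none rose: Cdkn1b, which encodes p27, fell by a log2 of 1.42 (edgeR adjusted p = 0.000371) and Cdkn2c, which encodes p18, fell by 1.35 (adjusted p = 0.00715). Of 14 G1 cyclins and their kinases 3 rose and 4 fell, among them the pocket protein genes Rbl1 (2.62, adjusted p = 5.02e-05) and Rbl2 (-1.91, adjusted p = 0.000876). Cdk2, the kinase gene whose product p21 inhibits, fell by 1.40 (adjusted p = 0.00636). The 15 tested proliferation genes held no rise and 2 falls, with a median of -0.58. There were 5 falls with library totals alone, 0 without LPS replicate 1 and 1 without LPS replicate 2 or 3. Of 14 genes of the BTG/TOB family and CCR4-NOT, 1 rose and 6 fell, and the falls numbered 2 without LPS replicate 2 and 3 without LPS replicate 3. Tob1, an antiproliferative relative of Btg1 and Btg2, was at 197, 151 and 127 CPM in untreated livers and at 3.64, 2.05 and 1.96 CPM after LPS. It fell by a log2 of 5.95 (edgeR adjusted p = 6.52e-06), Tob2 fell by 1.65 (adjusted p = 0.000180), and Prmt1 rose by 1.09 (adjusted p = 0.00123). Of 8 kinases that act with GADD45 proteins 2 rose and 3 fell, and Map2k6, which activates p38, was lower by the most (-3.43, adjusted p = 0.00226, and -2.76 without untreated replicate 3). Map2k6 had 39, 82 and 177 counts in untreated livers and 6, 5 and 9 after LPS. With library totals alone the 8 kinases split into 0 higher and 5 lower. Without untreated replicate 1 or LPS replicate 1 there was 1 higher with 2 lower, without untreated replicate 2 there were 3 lower alone, and without LPS replicate 2 or 3 there was 1 lower alone.

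Markers of some other cells moved in the same livers, where 23.3% of all genes tested were called higher and 22.1% lower. Neutrophil markers summed to 3.37 to 8.73 CPM in untreated livers and 225 to 316 CPM after LPS, and 8 of 9 tested were called higher. Macrophage markers summed to 162 to 195 and 395 to 625 CPM, with 4 of 10 called higher. Erythroid markers summed to 158 to 274 and 565 to 1041 CPM, with 5 of 6 tested called higher. Markers of large peritoneal macrophages summed to 32.4 to 76.7 and 239 to 294 CPM, with 4 of 6 tested called higher. T and NK cell markers summed to 6.08 to 10.98 and 12.8 to 18.6 CPM, with 3 of 11 called higher. Kupffer cell markers summed to 337 to 401 and 437 to 696 CPM, with 1 of 9 called higher and 1 lower. For sinusoidal endothelial markers the sums overlapped (173 to 297 and 200 to 226 CPM), with 3 of 10 called higher and 5 lower. Sums of hepatocyte markers also overlapped (97444 to 140655 and 65956 to 106394 CPM), and 2 of 9 were called lower. Stellate cell and fibroblast markers (1 of 9 lower) and B cell markers (1 of 7 lower) had overlapping sums. Their part in the values of the 10 genes was not tested.

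The second comparison asked how the same genes stood in LPS-treated macrophages given the hairpin against Gm26917. The called members were all lower with shGm26917: Gadd45b 6.75-fold, Plk2 5.58-fold, Cdkn1a 2.30-fold and Mdm2 1.76-fold. These were 4 of the 10 genes, and none rose, at an adjusted p under 0.05 in the edgeR quasi-likelihood test over 12876 genes. Over all genes tested, 23.7% were called, 12.6% higher and 11.1% lower. The groups did not overlap for 8 of the 10 genes, against 45.9% of all genes tested. Without shNC replicate 2, the library that stood apart, 6 of the 10 were called, all of them lower, beside 39.6% of all genes tested. The count was 2 of 10 without shGm26917 replicate 1, 2 or 3, beside 10.1%, 6.35% and 7.38% of all genes.

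**Figure D2:**
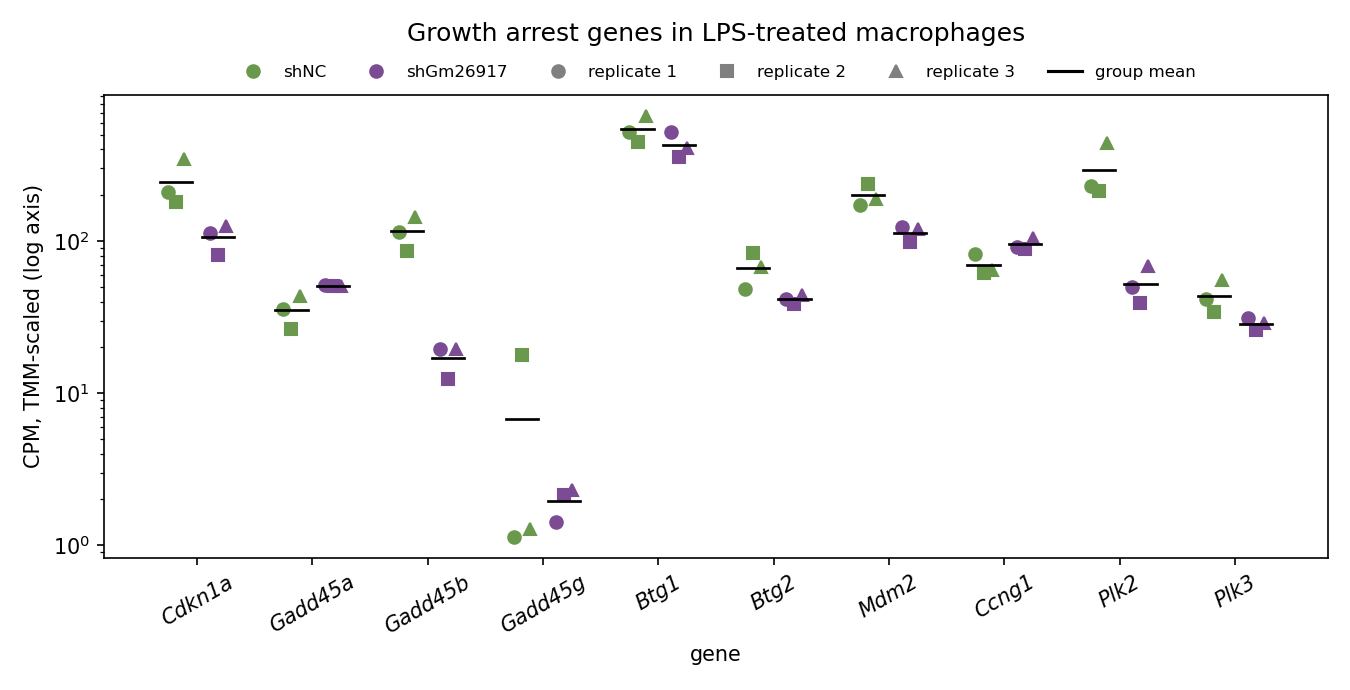
Level of each of the 10 genes in the 6 macrophage libraries, in TMM-scaled CPM on a log axis, with shNC in green, shGm26917 in purple, symbols for replicates and a bar at each group mean. Gadd45b and Plk2 show the widest gaps, and the shNC mean of Gadd45g is set by replicate 2.

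Gadd45b was at 115, 86.6 and 145 CPM with the control hairpin and at 19.5, 12.3 and 19.6 CPM with shGm26917. The lowest control library was several times the highest shGm26917 library. The difference was -2.76 on the log2 scale (SE 0.26, edgeR adjusted p = 0.00277), lay between -2.94 and -2.56 when 1 library was left out, and kept its call each time. Gadd45a was at 35.8, 26.4 and 43.5 CPM with the control hairpin and at 51.3, 50.8 and 50.4 CPM with shGm26917, with every shGm26917 library above every control library. Although the groups did not overlap, the log2 fold change of 0.53 was not called (95% interval 0.09 to 0.96, edgeR adjusted p = 0.0791). It was called higher without shNC replicate 3 (0.70, adjusted p = 0.0455) and with library totals alone (0.82, adjusted p = 0.0169).

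Gadd45g had few reads in these cells, with 17, 265 and 19 counts in the shNC libraries and 28, 39 and 41 in the shGm26917 libraries. These were 1.14, 17.9 and 1.28 CPM against 1.43, 2.14 and 2.32 CPM, so shNC replicate 2 alone was high. The log2 fold change of -1.79 was not called (95% interval -4.31 to 0.74, edgeR adjusted p = 0.260), and without shNC replicate 2 it was 0.68 (adjusted p = 0.187).

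Per length, the GADD45 genes summed to 98.5 ± 16.6 CPM per kb with the control hairpin and 41.2 ± 2.51 with shGm26917 (SD, n = 3 each), and the make-up of the family differed. Gadd45b held 77.4%, 64.3% and 78.0% of the sum in the shNC libraries and 28.8%, 20.2% and 28.7% in the shGm26917 libraries. Gadd45a held 20.1% ± 2.17 and then 70.0% ± 4.43. The shares of Gadd45a and of Gadd45b did not overlap between groups, and no macrophage library had the Gadd45g majority of the liver libraries.

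**Figure D3:**
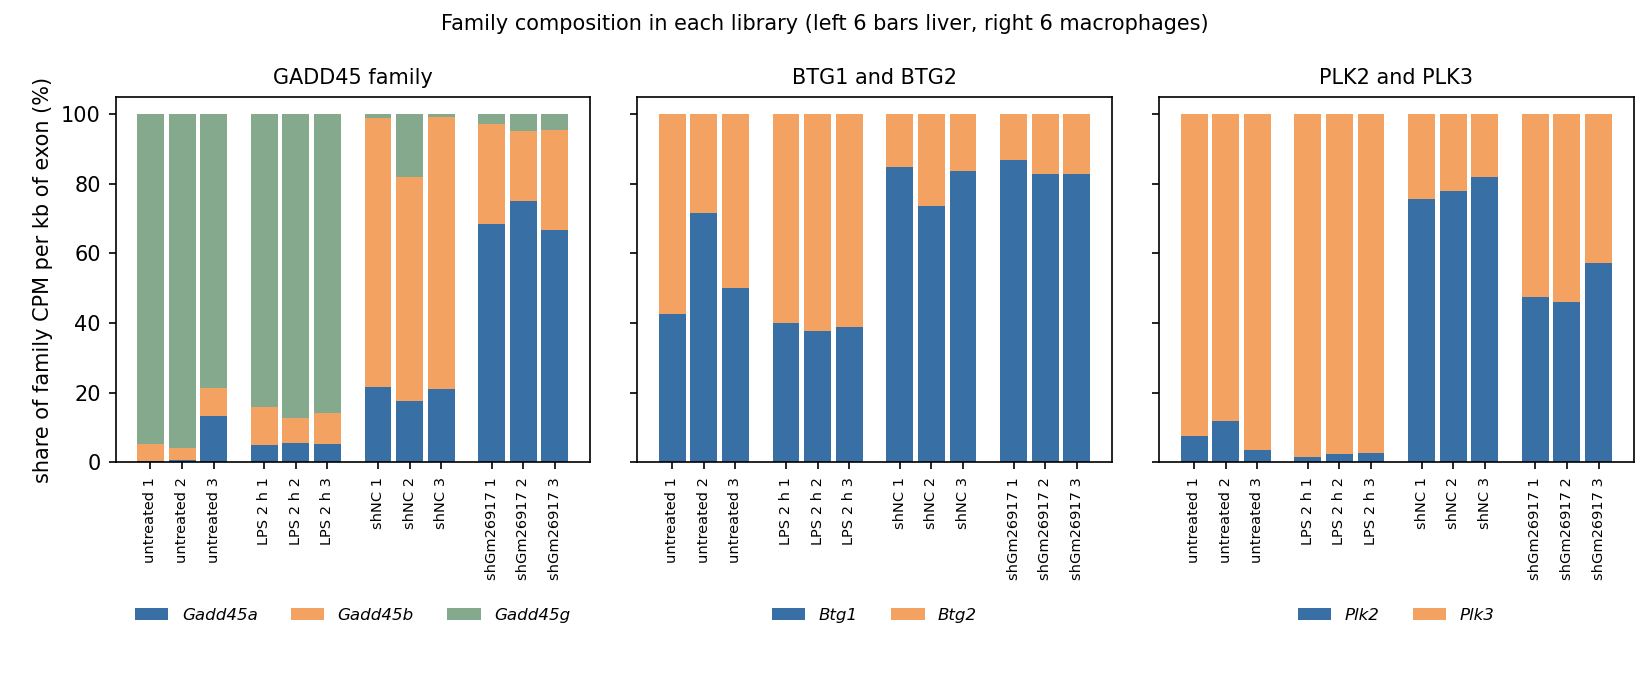
Share of each member in the CPM per kb of exon of its family, in percent, for each of the 12 libraries, with the 3 panels showing the GADD45 genes, Btg1 with Btg2, and Plk2 with Plk3. Gadd45g fills most of the bars in liver, Gadd45b in shNC macrophages and Gadd45a in shGm26917 macrophages, and Plk2 is a minor share in liver but not in macrophages.

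Plk2 was at 229, 212 and 439 CPM with the control hairpin and at 49.8, 39.3 and 68.6 CPM with shGm26917. The difference was -2.48 on the log2 scale (SE 0.35, edgeR adjusted p = 0.00644), lay between -2.72 and -2.08 with 1 library left out, and kept its call each time. Plk3 was at 41.7, 34.0 and 55.0 CPM and at 31.2, 25.8 and 29.0 CPM, groups that came close without overlapping. Its log2 fold change of -0.60 was not called (95% interval -1.06 to -0.15, edgeR adjusted p = 0.0622). It was called lower without shNC replicate 2 (-0.77, adjusted p = 0.00570) and by DESeq2 (-0.63, adjusted p = 0.0297). Per length, Plk2 made up 78.4% ± 3.15 of the Plk2 and Plk3 sum with the control hairpin and 50.2% ± 6.04 with shGm26917, where it had made up 2.26% ± 0.627 in LPS liver.

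Cdkn1a was at 210, 179 and 346 CPM with the control hairpin and at 113, 81.25 and 125 CPM with shGm26917. The groups were apart, with shNC replicate 3 well above the others, and the log2 fold change was -1.20 (SE 0.29, edgeR adjusted p = 0.0278). The call was lost without shNC replicate 3 (-0.88, adjusted p = 0.0524) and without shGm26917 replicate 1 (-1.25, adjusted p = 0.0848), replicate 2 (-1.04, adjusted p = 0.106) or replicate 3 (-1.34, adjusted p = 0.0738). It was also lost with all 12 libraries in 1 fit (-1.21, adjusted p = 0.251). Mdm2 was at 173, 239 and 188 CPM and at 123, 97.9 and 119 CPM. It fell by a log2 of 0.82 (SE 0.17, edgeR adjusted p = 0.0177), a call lost without shGm26917 replicate 1 (-0.88, adjusted p = 0.0536), replicate 2 (-0.72, adjusted p = 0.0799) or replicate 3 (-0.85, adjusted p = 0.0678).

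Ccng1 was at 82.5, 62.1 and 64.6 CPM with the control hairpin and at 91.9, 89.0 and 104 CPM with shGm26917, higher in every library as Gadd45a was. A log2 fold change of 0.45 was not called (95% interval 0.10 to 0.80, edgeR adjusted p = 0.0674). It was called higher without shNC replicate 1 (0.57, adjusted p = 0.0452) and with library totals alone (0.73, adjusted p = 0.0206).

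Btg2 was at 48.2, 83.0 and 67.4 CPM with the control hairpin and at 41.4, 38.8 and 44.3 CPM with shGm26917, without overlap. Its log2 fold change of -0.67 narrowly missed the call (95% interval -1.15 to -0.20, edgeR adjusted p = 0.0513). It was called lower without shNC replicate 1 (-0.87, adjusted p = 0.0181) or replicate 2 (-0.49, adjusted p = 0.0379), by DESeq2 (-0.69, adjusted p = 0.0179) and with RLE scaling (-0.69, adjusted p = 0.0485). Btg1 was at 518, 445 and 667 CPM and at 522, 355 and 412 CPM, overlapping, with a log2 fold change of -0.34 that was not called (95% interval -0.85 to 0.18, edgeR adjusted p = 0.292). Per length, Btg1 held 80.7% ± 6.19 of the Btg1 and Btg2 sum with the control hairpin and 84.1% ± 2.32 with shGm26917.

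Btg1 was the highest of the 10 per length in both macrophage groups, at 103 ± 21.4 CPM per kb with shNC and 81.5 ± 16.1 with shGm26917. In shNC cells Gadd45b (72.7 ± 18.3), Cdkn1a (69.0 ± 24.95) and Plk2 (65.3 ± 28.1) came next, in that order in replicates 1 and 2. In shNC replicate 3 the order was Plk2 (97.6), Cdkn1a (97.3) and Gadd45b (91.1). In shGm26917 cells the places after Btg1 went, by mean, to Cdkn1a (29.9 ± 6.38), Gadd45a (28.8 ± 0.276) and Ccng1 (27.1 ± 2.35). Replicates differed in that order. In shGm26917 replicate 2 Cdkn1a (22.9) lay below Gadd45a (28.8) and Ccng1 (25.3), and in replicate 3 Ccng1 (29.8) lay above Gadd45a (28.5). Plk2 (11.7 ± 3.30), Plk3 (11.3 ± 1.06) and Gadd45b (10.8 ± 2.61) stood close together above Gadd45g (1.67 ± 0.404).

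**Figure D4:**
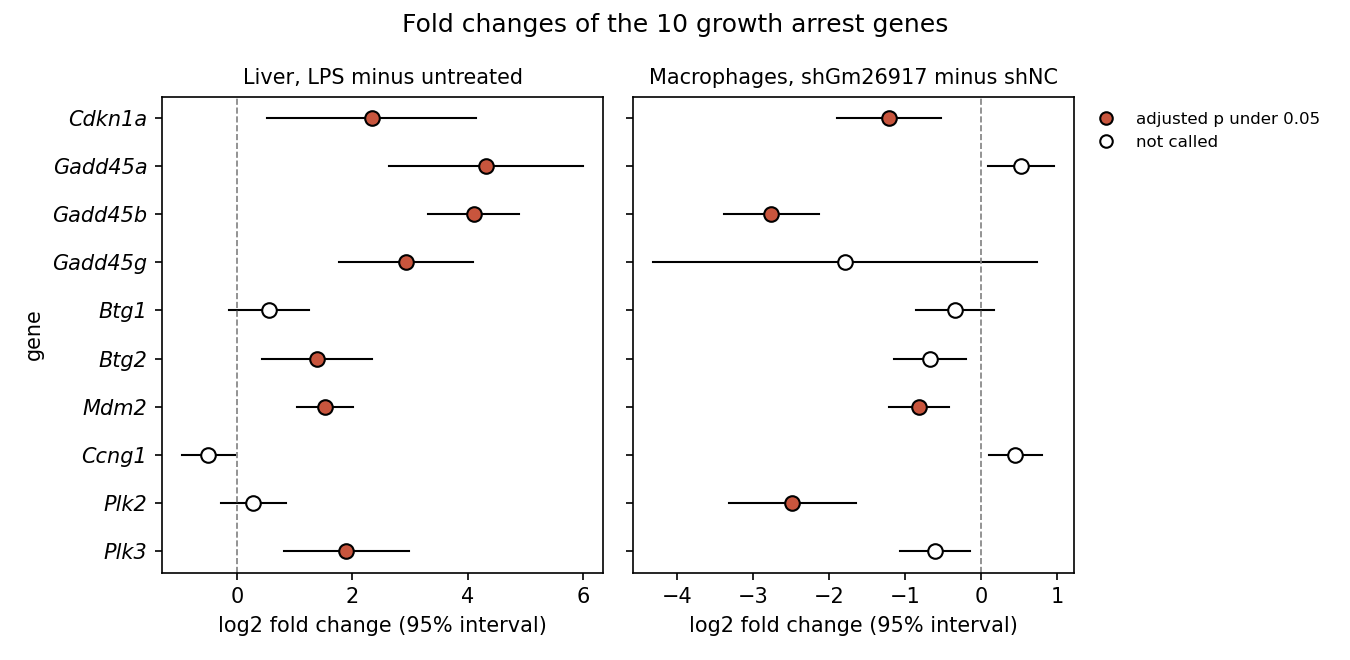
Log2 fold change of each of the 10 genes with its 95% interval, in liver (LPS minus untreated) and in macrophages (shGm26917 minus shNC), filled where the edgeR adjusted p was under 0.05. Filled points lie to the right of 0 in liver and to the left of 0 in macrophages.

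Set side by side, 3 genes (Cdkn1a, Gadd45b and Mdm2) rose with LPS in liver and were lower with shGm26917 in macrophages. Gadd45a, Gadd45g, Btg2 and Plk3 were called in liver only, Plk2 in macrophages only, and Btg1 and Ccng1 in neither. The comparisons used different tissues and treatments, and a difference between them was not tested.

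The pathway lists in macrophages were again mixed. Beside every list count, 23.7% of all genes tested were called, 12.6% higher and 11.1% lower. The share was 16.0%, 39.6% and 12.6% without shNC replicates 1, 2 and 3, and 10.1%, 6.35% and 7.38% without shGm26917 replicates 1, 2 and 3. With library totals alone it was 30.5%. Of 14 tested genes among p53 and its regulators 3 rose and 1 fell, with a median log2 fold change of -0.01 beside -0.00 over all genes. The split was 5 higher and 2 lower without shNC replicate 2, and 2 higher alone without shNC replicate 1 or any 1 of the shGm26917 libraries. Trp53 was not called (0.57, 95% interval 0.10 to 1.05, edgeR adjusted p = 0.0807) and was called higher with library totals alone (0.86, adjusted p = 0.0217) and without shNC replicate 2 (0.36, adjusted p = 0.0258). Mdm4 was not called (-0.17, adjusted p = 0.294) and was at 0.12 with library totals alone. The checkpoint kinase genes Chek2 (2.17, adjusted p = 0.00418) and Atr (1.25, adjusted p = 0.0101) rose. Of 26 other p53 targets 5 rose and 3 fell, with a median of 0.15. Without shNC replicate 3 this was 2 higher and 1 lower, and without shGm26917 replicates 1, 2 and 3 it was 3, 1 and 2 higher with 1 lower each time. Sesn1, a sestrin, rose by a log2 of 1.87 (adjusted p = 0.00492), and Ddit4, an inhibitor of mTORC1, fell by 2.44 (adjusted p = 0.00233). Of 6 other CDK inhibitors 2 were called higher and none lower, with 1 called without shNC replicate 1 and 0 without shNC replicate 3 or any 1 of the shGm26917 libraries.

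Of 15 G1 cyclins and their kinases 2 rose and 2 fell, beside 12.6% of all genes called higher and 11.1% lower. Without shNC replicate 1 or any 1 of the shGm26917 libraries 1 rose and 1 fell, beside the shares given above for those fits. Ccnd2, which encodes cyclin D2, was at 100, 67.6 and 115 CPM with the control hairpin and at 7.03, 6.63 and 10.3 CPM with shGm26917. It fell by a log2 of 3.56 (edgeR adjusted p = 0.00233), whereas in liver it rose with LPS by 1.95 (adjusted p = 0.00115), and Rbl2 rose by 1.08 (adjusted p = 0.00439). Proliferation genes held 1 rise and 1 fall among 17 tested, the fall being Tyms, the thymidylate synthase gene (-1.99, adjusted p = 0.00573). Without shNC replicate 2 there were 5 higher and 2 lower, and without any 1 of the other libraries 1 lower alone. Of 14 genes of the BTG/TOB family and CCR4-NOT 2 fell and none rose, but with library totals alone 3 rose and none fell. Without shNC replicate 2 there were 1 higher and 5 lower, without shGm26917 replicate 1 there was 1 lower, and without shNC replicate 3 or shGm26917 replicate 2 or 3 there were 0 calls. Of 7 GADD45 partner kinases 1 rose and 3 fell, against 2 higher and 1 lower with library totals alone. Without shNC replicate 3 there was 1 higher alone, without shGm26917 replicate 1 there was 1 each way, and without shGm26917 replicate 2 or 3 there were 0 calls.

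**Figure D5:**
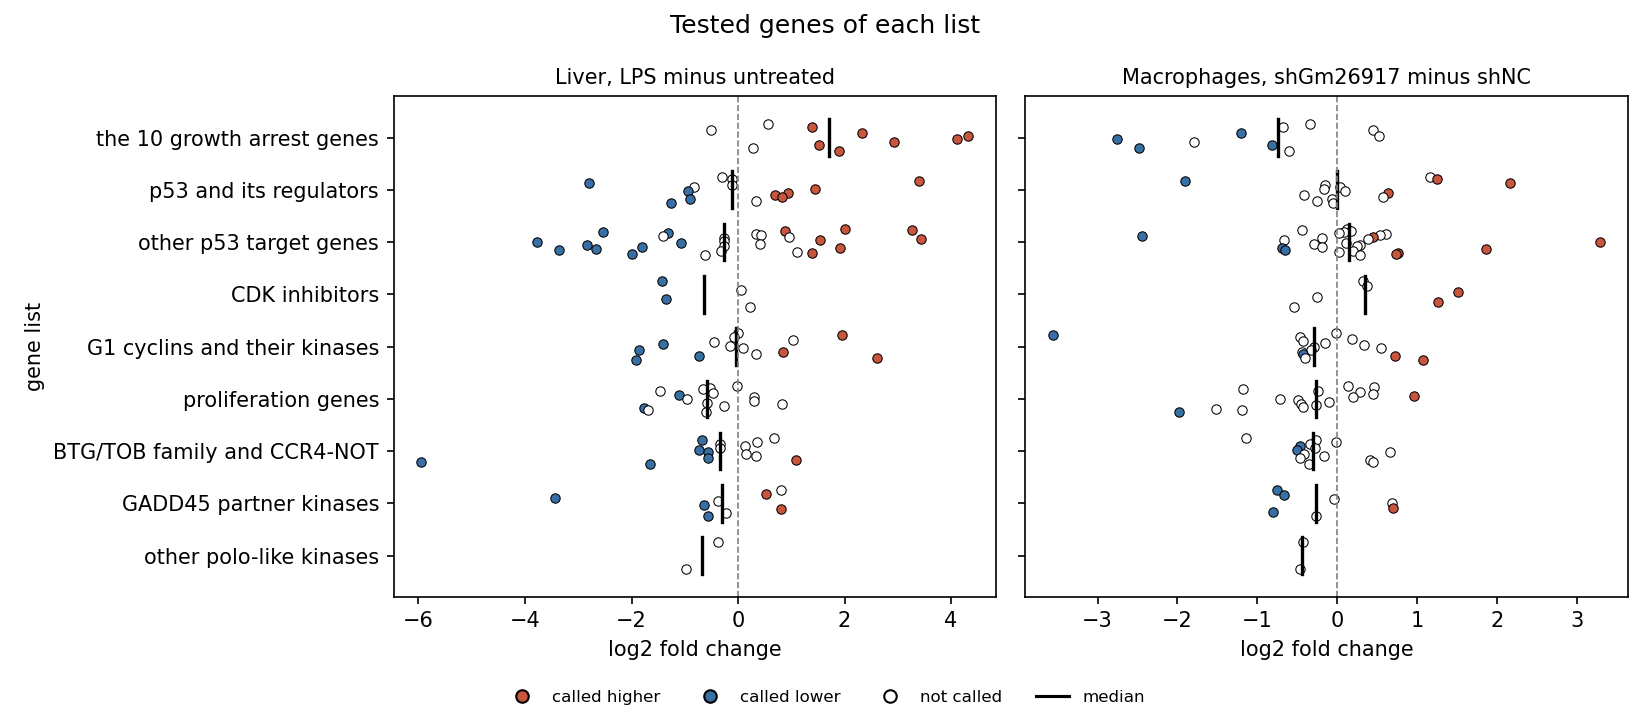
Log2 fold change of every tested gene of the 10 growth arrest genes and of 8 related lists, with liver on the left and macrophages on the right, points coloured by call and a bar at each median. The 10 genes, chosen with earlier results known, have medians of 1.71 in liver and -0.75 in macrophages. Points lie on both sides of 0 among the 10 genes as well as among the related lists.

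Of the pathway genes that the naming rule picked outside the 10, 19 of 32 in liver and 7 of 24 in macrophages kept their calls when any 1 library was left out. Those given values above as risen or fallen are of this kind, apart from Trp53 in liver.

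Markers of other cells in the macrophage libraries were as follows, beside 12.6% of all genes tested called higher and 11.1% lower. Macrophage markers summed to 13110 to 23258 CPM with shNC and 19508 to 29799 CPM with shGm26917, with 3 of 10 called higher and 1 lower. Neutrophil markers summed to 783 to 1242 and 626 to 753 CPM, with 1 of 5 tested higher and 2 lower, and the defining markers Ly6g, Ngp and Retnlg had 0 counts in all 6 libraries. B cell markers summed to 218 to 652 and 161 to 363 CPM, with 1 of 8 called higher. Stellate cell and fibroblast markers summed to 22.2 to 27.2 and 4.33 to 5.67 CPM, with 0 of 3 tested called. T and NK cell markers summed to 1.76 to 7.91 and 0.821 to 1.13 CPM, and the 1 tested was called lower. Large peritoneal macrophage markers summed to 768 to 1342 CPM with shNC and 1167 to 2034 CPM with shGm26917, with 1 of 8 called higher. Kupffer cell markers summed to 53 to 120 and 66.7 to 173 CPM, with 1 of 7 tested called higher. Sinusoidal endothelial markers summed to 41.0 to 152 and 90.4 to 142 CPM, with 1 of 4 tested called lower. Among the shNC libraries, replicate 2 had the lowest macrophage sum (13110 CPM, against 21196 and 23258 in replicates 1 and 3). The same library had the highest neutrophil (1242, against 967 and 783), B cell (652, against 330 and 218) and T and NK cell sums (7.91, against 2.88 and 1.76). It also had the highest sum of large peritoneal macrophage markers (1342, against 768 and 831), so the macrophage lists did not go the same way. Its Kupffer cell (120, against 56.6 and 53) and sinusoidal endothelial sums (152, against 66.3 and 41.0) were highest too. Hepatocyte markers summed to at most 0.469 CPM, with Apob, Cps1 and Ttr at 0 counts. The part of these cells in the values of the 10 genes was not tested.

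Cdkn1a, Gadd45a and Plk3 each overlap a gene on the opposite strand, over 273, 337 and 84 exonic bases. The sources used here do not say whether strand was used in counting. The opposite gene of Gadd45a had 10 to 28 counts per library in liver, where Gadd45a itself had 18 and 27 in untreated replicates 1 and 2. In macrophages this opposite gene had 1 to 18 counts. That of Plk3 had 1 to 9 counts in liver and 5 to 18 in macrophages, and that of Cdkn1a had 9 to 24 in macrophages. The part of the overlaps in the values of these genes was not tested.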

How the data were processed

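The 12 libraries were grouped by title and treatment. The files the authors deposited hold raw counts, that is whole-number reads per Ensembl gene identifier, made by the authors with STAR and featureCounts 1.6.3 on mm10, per the submitters' processing notes. Annotation release, strand use and the treatment of reads with several positions are not stated in the sources used here, nor is the meaning of the word combined in the macrophage column headers. The identifiers differ between tissues, so each tissue was fitted alone.

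Genes were kept with filterByExpr at its defaults, scaled by TMM and tested with the quasi-likelihood F test of edgeR 4.0.16 (R 4.3.3), 2-sided. Benjamini-Hochberg adjustment ran over all genes tested in a tissue, and a gene was called when its adjusted p was under 0.05. Fold changes (log2) have LPS over untreated and shGm26917 over shNC. The SE is the absolute log2 fold change over the square root of F, and intervals are at 95%. The code was tested on simulated data with 100 genes changed at each size. Log2 changes of 1 were called in 21% of cases in liver and 30% in macrophages, and changes of 2 in 95% and 90%. Far fewer genes were changed there than were called in the data, so these shares need not carry over. A gene that was not called may still differ. Symbols, positions and exon lengths are those of GENCODE M21 on GRCm38, and promoter sequences those of RefSeq.

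The 10 genes and the lists were chosen with earlier results of these data known. From each other list the rule names at most 3 called genes higher and 3 lower, by size of change, and Trp53 and Mdm4 always. Those that lost their call when 1 library was left out are given only in counts, except Trp53. Of the hepatocyte markers, 9 of 10 were found. Alternatives were RLE scaling, library totals alone, DESeq2 1.42.0, no filter, a filter of 1 CPM in 3 libraries, all 12 libraries in 1 fit, the replicate number as a block, and leaving out each library. Counts of list genes under these alternatives were added after seeing the data. Precision is limited by 3 libraries per group.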

Additional observations from a re-analysis of the deposited data

How the results depend on the processing

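The number of genes called in liver was 6287, and it was 4865 to 6227 with 1 library left out. The number of the 10 growth arrest genes called was 7 in liver and 5 to 8 with 1 library left out. In macrophages 3049 genes were called, and 839 to 5236 with 1 library left out: 5236 without shNC replicate 2, 1679 without shNC replicate 3, and 1341, 839 and 978 without shGm26917 replicates 1, 2 and 3. The number of the 10 genes called there was 4, and 2 to 6 with 1 library left out, with 2 called without any 1 of the shGm26917 libraries. Gadd45b and Plk2 were called lower in every alternative run. DESeq2 called 6 of the 10 in each tissue.

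With library totals alone the middle of all log2 fold changes moved by -0.43 in liver and 0.29 in macrophages. The share of calls that were higher then went from 51.3% to 26.8% in liver and from 53.1% to 79.8% in macrophages. Of the 10 genes it called 5 higher and 1 lower in liver, and 2 higher and 4 lower in macrophages. It reversed Plk2 in liver (-0.16) and Mdm4 in macrophages (0.12), and leaving out shNC replicate 2 reversed Gadd45g in macrophages (-2.30 to 0.68 with 1 library left out); the cause was not tested.

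With the replicate number as a block, 5754 genes and 7 of the 10 were called in liver, and 2594 genes and 4 of the 10 in macrophages. Same-numbered libraries deviated together with correlations of 0.118, 0.0498 and -0.0766 in liver and -0.0407, 0.240 and 0.178 in macrophages. Between libraries of different number they ran from -0.186 to 0.123 in liver and from -0.236 to 0.157 in macrophages. With 3 libraries per group these values cannot settle whether libraries were paired. The labels give only a replicate number, so the main fit used no pairs. Low counts limit Gadd45g in macrophages, and Chek1, Phlda3 and Map2k6 in liver.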
